A study of Mus musculus with 4 samples.

Results

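The data cover 10 mouse genes of the antioxidant programme run by the transcription factor NRF2: the factor's own gene Nfe2l2, its target genes Hmox1, Gclc, Gclm, Slc7a11, Nqo1, Srxn1 and Txnrd1, and the aldo-keto reductase genes Akr1b7 and Akr1b8. They were taken as every probe whose gene name in the scanner files was one of these symbols, which gave 11 probes on 20 spots, of 34761 genes, 55681 probes and 59305 non-control spots in all. Hmox1 had 2 probes, Akr1b8 had 1 probe printed on 10 spots, and the other genes had 1 probe on 1 spot each. The RNA came from livers of male C57BL/6 mice kept for 0, 5, 10 or 15 weeks on a high-fat, high-sucrose diet begun at 5 weeks of age, so that the mice were 5, 10, 15 and 20 weeks old when liver was taken. The study's text gives 4 mice at each time, but there was 1 array at each time, and whether an array held RNA of 1 mouse or a pool is not stated. All groups ate the diet except at 0 weeks, and no mice of the later ages on another diet are analysed here, so diet and age cannot be told apart.

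NRF2 is held in the cytoplasm by the sensor KEAP1, which marks it for degradation; oxidants and electrophiles modify KEAP1, and NRF2 then enters the nucleus, pairs with small MAF proteins and binds antioxidant response elements, a site that the repressor BACH1 also occupies. Its targets make glutathione, reduce quinones and peroxides, and break down heme, and in liver they share the handling of reactive products of lipid and drug metabolism. Aldo-keto reductases convert reactive aldehydes, including those from lipid peroxidation, to alcohols.

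The promoters of 4 of these genes are shown because they hold letters of the core of the antioxidant response element, searched as TGACNNNGC on both strands between 250 bases before and 50 after the gene's start. The letters were found in 12.4% of 32851 mouse promoters in the RefSeq table of build GRCm38.p6. Of these genes, 8 had an entry there, with 10 promoters, and 4 of the 10 held the letters, each of another gene. A second motif, TGACTCA, opens with the same letters TGAC and is the site of AP-1 and of small MAF pairs. It was found in 5.2% of all promoters and in 1 of the 10 of these genes, that of Srxn1. In the windows of 80 bases below, written 5′ to 3′ on the gene's strand, capitals mark the match.
Nfe2l2 (chr2:75704834-75704913, minus strand, match first base -240): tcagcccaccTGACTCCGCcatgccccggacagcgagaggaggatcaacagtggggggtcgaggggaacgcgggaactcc
Gclm (chr3:122245387-122245466, plus strand, match first base -134): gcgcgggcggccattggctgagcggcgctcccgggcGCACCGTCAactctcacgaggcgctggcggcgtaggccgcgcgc
Txnrd1 (chr10:82859078-82859157, plus strand, match first base -92): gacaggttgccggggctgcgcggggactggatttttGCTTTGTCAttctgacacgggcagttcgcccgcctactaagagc
Srxn1 (chr2:152105414-152105493, plus strand, TGACTCA at first bases -102 and -45): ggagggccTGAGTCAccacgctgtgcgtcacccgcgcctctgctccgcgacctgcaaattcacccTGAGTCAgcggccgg
In Gclm, Txnrd1 and Srxn1 the capitals read on the other strand, and the longer motif of Srxn1 began at base 28, after the start. Such a match describes letters in this window only.

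Akr1b7 and Akr1b8 are close paralogs whose profiles differed, so parts of their 60-base probes are set side by side. Positions are in build mm9, both on the plus strand, and capitals mark the longest run that the whole probes share.
Akr1b7 (chr6:34372913-34372942): tgcatgatagatTCCTTCgtctctctaaaa
Akr1b8 (chr6:34318338-34318367): aacggacatcTCCTTCactaatttgacctg
The run is 6 bases long, and 14 of the 60 bases of both probes were the same at the same position. How far either probe takes up RNA of another family member was not tested.

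Values are scaled signals, the scanner's processed signal divided by the 75th percentile of all non-control spots of that array, so that 1 is the level of that percentile and each probe is compared only with itself. The percentile was 208.2, 207.7, 193.7 and 271.6 at 0, 5, 10 and 15 weeks, and 44.9%, 44.5%, 44.6% and 48.3% of spots were well above background, so the 15-week array stood somewhat apart from the other 3. The 5-week array stood apart in adipocyte markers: Adipoq, Plin1 and Retn were above background on that array alone, at least 5.18-, 1.94- and 3.8-fold above 0 weeks, and Lep on none. Their part in the 5-week values below was not tested. A gene is called higher or lower where its main probe, the brightest over the 4 arrays, passed the scanner's background mark on the pair of arrays and differed at least 2-fold. With 1 array a time there is no replicate check and no test of any difference. Repeated spots gave an SD of 0.0987 for a log2 difference between arrays, which covers error between spots and not between mice. The median of all measured genes lay at -0.02, -0.01 and -0.25 on the log2 scale at 5, 10 and 15 weeks against 0 weeks, and the 15-week value ran from -0.25 to 0.27 under other scalings. Of 12 hepatocyte markers, 11 were above background on every array, Serpina1b being the exception. In bulk liver RNA, fewer cells of a type and less RNA per cell cannot be told apart.

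Hmox1 was the 1 member at least 2-fold higher at 15 weeks than at 0 weeks, and Akr1b7 was the 1 member at least 2-fold lower, at each of the 3 later times. Gclc was at least 2-fold higher at 15 weeks than at 5 weeks. Nqo1 and Srxn1 were lowest at the middle times and within 2-fold of 0 weeks throughout, Gclm and Txnrd1 stayed within 1.5-fold of 0 weeks, and Slc7a11 was not well above background on any array.

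**Figure D1:**
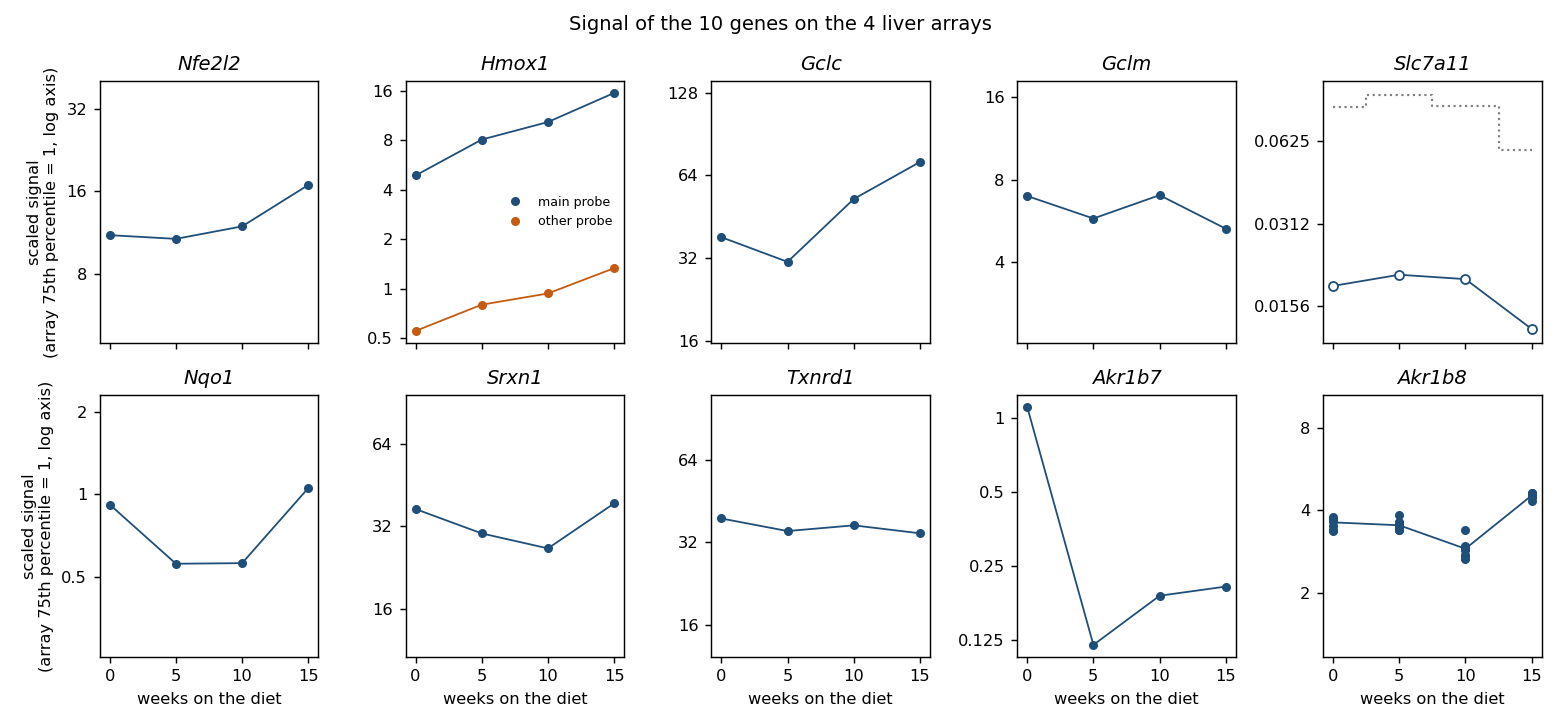
Scaled signal (array 75th percentile set to 1, log axis with its own range in each panel) of the 10 genes by weeks on the diet; each point is a spot, lines join probe means, open points are not well above background, and the dotted line beside Slc7a11 is the lowest signal among probes above background on each array. Both Hmox1 probes climb over the 4 arrays, Akr1b7 stands at 0.120 at 5 weeks against 1.11 at 0 weeks, and the 10 spots of Akr1b8 lie close together on each array.

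Nfe2l2, which encodes NRF2, was measured by a probe at mm9 chr2:75513771-75513830. Its scaled signal was 11.1, 10.75, 11.9 and 16.9 at 0, 5, 10 and 15 weeks. The first 3 arrays lay close together and the 15-week array was the highest, 1.52-fold above 0 weeks, or 0.61 on the log2 scale, and so within the 2-fold limit. Against the median gene the 15-week difference was 0.86, and under the 9 other ways of processing the unadjusted difference ran between 0.61 and 1.12.

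Among 14 genes of the sensor and partners of NRF2, a list that includes Nfe2l2, 13 were measured. Beside 5.76% and 5.03% of all measured genes, 1 was at least 2-fold higher at 15 weeks than at 0 weeks and none lower. That gene was Maff, a small MAF partner, whose signal was 0.347, 1.0, 0.947 and 1.5 over the 4 arrays, so that it was already 2.89-fold higher at 5 weeks than at 0 weeks. Keap1, the sensor, had 23.4, 23.7, 24.1 and 18.9, and its difference of -0.31 at 15 weeks lay close to that of the median gene. Bach1, the repressor that competes for the same sites, had 3.49, 4.98, 4.62 and 3.62, highest at the middle times and within 2-fold throughout.

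Hmox1 encodes heme oxygenase 1, which splits heme into biliverdin, iron and carbon monoxide. Its main probe, at mm9 chr8:77624207-77624266, read 4.89, 8.07, 10.3 and 15.5 at 0, 5, 10 and 15 weeks. Every later array was above the one before it, and the signal was 1.65-, 2.11- and 3.17-fold higher than at 0 weeks at 5, 10 and 15 weeks. At 15 weeks 2.14% of measured genes were further above 0 weeks. The other probe sits in another stretch of the transcript, at mm9 chr8:77620797-77620856 on the plus strand, and its sequence is given because it is another reading of the same gene.
Hmox1, other probe: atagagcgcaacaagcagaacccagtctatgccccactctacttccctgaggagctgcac
It read 0.555, 0.802, 0.938 and 1.34, in the same order over time, and was 1.69-fold higher at 10 weeks and 2.41-fold higher at 15 weeks than at 0 weeks. The 15-week call held for both probes, whereas the 10-week call rests on the main probe and was lost in 3 alternatives, at 0.98 on the log2 scale with the array median or the deposited table and at 0.92 with the mean of both probes.

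Macrophages, which take up red cells and heme, are a known site of Hmox1 in liver, and their markers were higher on the same arrays. Of 15 measured Kupffer cell and macrophage markers, 5, 12 and 11 were at least 2-fold higher at 5, 10 and 15 weeks than at 0 weeks and none was lower. Among all measured genes, 2.3%, 2.92% and 5.76% were higher at these times, and 1.57%, 1.53% and 5.03% lower. The summed scaled signal of these markers was 141.1, 255.6, 296.7 and 362.6 over the 4 arrays. The tissue macrophage gene Adgre1 had 1.75, 3.31, 4.48 and 5.56, and the lysosomal gene Cd68 had 3.73, 8.62, 9.44 and 19.5. Clec4f, a marker of resident Kupffer cells, had 22.1, 38.1, 46.6 and 32.9, and Timd4, another such marker, had 0.834, 0.510, 0.803 and 0.424, so that these were not highest at 15 weeks. Cd163, the hemoglobin scavenger receptor, was above background at 5 weeks only. Spic, the factor of iron-handling macrophages, had 0.924, 1.21, 1.21 and 2.30 and was 2.49-fold higher at 15 weeks than at 0 weeks. Of 8 measured markers of recruited and lipid-laden macrophages, 4, 5 and 6 were at least 2-fold higher at 5, 10 and 15 weeks than at 0 weeks. At 10 weeks 1 was lower. Trem2 had 0.415, 1.27, 1.29 and 9.64, and Cx3cr1 had 0.132, 0.597, 0.613 and 4.2. Other markers ran otherwise. Lpl, the 1 lower at 10 weeks, had 6.66, 4.22, 2.50 and 14.0, and Cd9 had 8.31, 7.66, 6.33 and 12.8. Fabp5 had 11.3, 80.9, 26.2 and 16.4, highest at 5 weeks. The part of these cells in the Hmox1 signal was not tested.

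The other genes of heme and iron handling mostly stayed within 2-fold. Of 17 measured, Spic alone was at least 2-fold higher at 15 weeks than at 0 weeks and none was lower. These counts stand beside 5.76% and 5.03% of all measured genes. The median of the list lay 0.03 above that of all genes. Hmox2, the constitutive heme oxygenase, had 22.5, 19.1, 18.8 and 15.2. The ferritin genes Fth1 and Ftl1 and the biliverdin reductases Blvra and Blvrb stayed within 2-fold of 0 weeks.

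By the root mean square of the 3 log2 differences from 0 weeks, the genes most like Hmox1 over the 4 arrays among 1913 candidates were Syk (0.0392), Lst1 (0.0435), Axl (0.0657), Tbxas1 (0.0699) and Snx20 (0.0757). The closest to Gclc were Mme (0.0662), Gfra2 (0.0940), Slc7a7 (0.130), Plekha2 (0.145) and Bcl6 (0.171). With 4 arrays, likeness describes these profiles only.

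**Figure D2:**
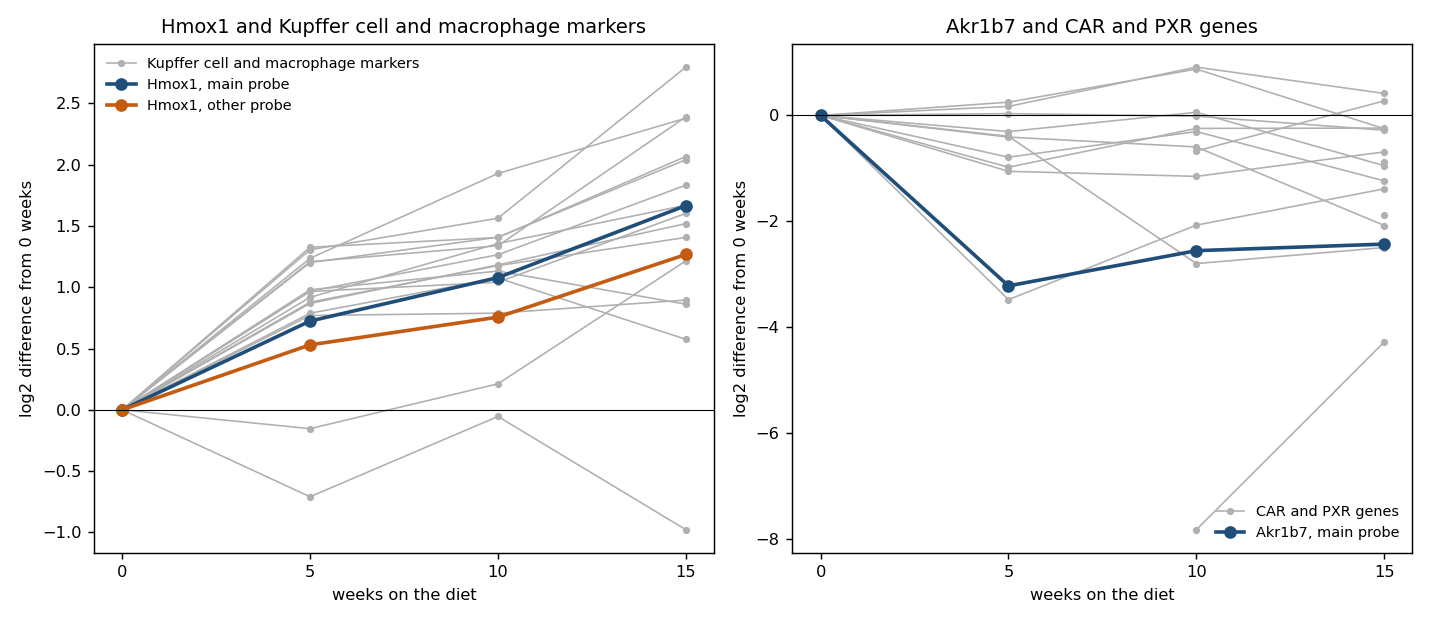
Log2 difference from 0 weeks by weeks on the diet for Hmox1 with 15 Kupffer cell and macrophage markers (left) and for Akr1b7 with genes of the nuclear receptors CAR and PXR (right); grey lines are single genes, with gaps where a probe was not well above background. Hmox1 runs among the macrophage markers, and Akr1b7 lies at -3.22, -2.56 and -2.43 at 5, 10 and 15 weeks, near Cyp3a11 at 5 weeks.

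Gclc and Gclm encode the catalytic and modifier subunits of glutamate-cysteine ligase, the rate-limiting enzyme of glutathione synthesis. Gclc, at mm9 chr9:77641296-77641355, had 38.1, 31.0, 52.5 and 71.6 at 0, 5, 10 and 15 weeks. It was lowest at 5 weeks and highest at 15 weeks, which was 2.31-fold above 5 weeks and 1.88-fold above 0 weeks. The step of 0.91 on the log2 scale between 15 and 0 weeks is under the 2-fold limit as scaled, and passed it with 4 other scalings, up to 1.43 with spike-in scaling. Gclm, whose probe joins pieces of the transcript that lie within mm9 chr3:121962174-121964809, had 6.98, 5.78, 7.03 and 5.30. It was within 1.5-fold of 0 weeks on every array, and its difference of -0.40 at 15 weeks turned to 0.12 with spike-in scaling, so the subunits of 1 enzyme did not share a profile.

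Slc7a11, the cystine importer that feeds glutathione synthesis, read 0.0185, 0.0203, 0.0196 and 0.0129 at 0, 5, 10 and 15 weeks, under the lowest signals of probes above background, 0.0833, 0.0919, 0.0838 and 0.0580. It was not well above background on any array and no fold is given. Slc7a11 is also a known target of the stress factor ATF4. Of 13 measured ATF4 stress genes, 6 were at least 2-fold higher at 15 weeks than at 0 weeks and 1 was lower. The shares of all measured genes were 5.76% and 5.03%. Another 6 were within 2-fold, namely Atf4 itself, Trib3, Sesn2, Cebpb, Asns and Ddit3. Ddit3 had 1.40, 1.52, 1.98 and 2.81, and at 1.9997-fold above 0 weeks at 15 weeks it lay just under the limit. Asns had 2.19, 3.21, 0.715 and 2.23, and was 3.06-fold lower at 10 weeks than at 0 weeks. The stress-induced factor Atf3 had 0.301, 0.471, 1.06 and 4.93, and the hormone gene Gdf15 had 1.45, 6.05, 7.21 and 19.7. The hormone gene Fgf21 had 1.24, 6.68, 3.22 and 7.38, Nupr1, a stress-induced chromatin protein, had 1.42, 1.75, 1.44 and 8.5, and the 1 lower gene, the mTOR inhibitor Ddit4, had 52.9, 13.5, 23.9 and 22.4.

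Of 16 measured genes of glutathione supply and turnover, 5 were at least 2-fold lower at 15 weeks than at 0 weeks. Another 1 was higher and 10 were within 2-fold, beside 5.03% lower and 5.76% higher among all measured genes. The list's median lay 0.56 below that of all genes. Mat1a, the hepatocyte methionine adenosyltransferase, had 631, 434, 353 and 206. Cth, which makes cysteine, had 209, 147, 111 and 68.6, and the amino acid carrier Slc1a4 had 27.9, 26.9, 19.8 and 5.21. Gnmt and Ahcy, of the methionine cycle, were also lower, the 0-week spot of Ahcy lying among 21 locally bright neighbours of 48. The 1 higher gene, Chac1, degrades glutathione and had 1.56, 3.0, 3.99 and 4.82. Hepatocyte markers moved the same way, with 3 of 11 lower at 15 weeks than at 0 weeks, none higher and a summed signal of 12450, 10934, 11974 and 7855 over the 4 arrays. The part of the hepatocyte share in these values was not tested.

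Nqo1 encodes a quinone reductase and is a widely used readout of NRF2. Its probe, at mm9 chr8:109912440-109912499, read 0.918, 0.559, 0.562 and 1.06 at 0, 5, 10 and 15 weeks. The middle arrays were equally low, 1.64-fold below 0 weeks at 5 weeks and 1.63-fold below at 10 weeks, and the 15-week array was 1.89-fold above 5 weeks. None of these differences reached 2-fold as scaled. The 15-week difference from 0 weeks was 0.20 on the log2 scale, 0.45 against the median gene and between 0.18 and 0.72 over the alternatives. The 10-week spot lay among 9 neighbours of 48 that were at least 2-fold brighter than their own median over the arrays, so its reading is less certain.

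Srxn1, sulfiredoxin, restores overoxidised peroxiredoxins, and its probe lies at mm9 chr2:151937009-151937068. It had 36.9, 30.1, 26.5 and 38.7, lowest at 10 weeks and at 15 weeks 0.07 above 0 weeks on the log2 scale. That 15-week difference depended on the scaling, between 0.07 and 0.59 over the alternatives, and was 0.32 against the median gene. Txnrd1, thioredoxin reductase, at mm9 chr10:82360230-82360289, had 39.0, 35.1, 36.8 and 34.5. Its whole range was 0.18 on the log2 scale. The 15-week difference of -0.18 turned positive in 4 of 9 alternatives, up to 0.34. Some of the 9 cannot move the difference of a gene with 1 probe: mean of probes, no background filter, and bright spots left out. The deposited table repeats the array median.

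Akr1b7, an aldo-keto reductase known in mouse from the vas deferens, adrenal and intestine and as a target of CAR and PXR, was the member that differed most. Its probe, at mm9 chr6:34372905-34372964, read 1.11, 0.120, 0.190 and 0.207 at 0, 5, 10 and 15 weeks. The 0-week array stood alone, and the signal was 9.32-, 5.88- and 5.39-fold lower at 5, 10 and 15 weeks than at 0 weeks. It held rank 8 from the lowest of 17095 measured genes at 5 weeks, 26 of 17143 at 10 weeks and 78 of 17562 at 15 weeks. The scanner's own error was 10.2% of the signal at 0 weeks and 21.9%, 15.6% and 12.4% at the later times, since the later signals were dim. With normexp background correction, which adds an offset of 50 to dim and bright spots alike, the log2 differences were -1.69, -1.46 and -1.32 in place of -3.22, -2.56 and -2.43, still lower at each time.

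Some other genes of CAR and PXR were lower as well. Of all measured genes, 1.57%, 1.53% and 5.03% were at least 2-fold lower at 5, 10 and 15 weeks than at 0 weeks. Measured and lower among the CAR and PXR genes were 2 of 10, 4 of 12 and 6 of 14 at these times. None was higher, beside 2.3%, 2.92% and 5.76% of all measured genes. Counting genes that dropped under background with a bound of at least 2-fold, 4, 5 and 6 of the 14 genes on the array were lower, so part of the climb in the first counts comes from the background filter. Cyp2b10, the main CAR target, had 97.4 at 0 weeks, was not well above background at 5 weeks and at least 1059-fold lower there, and had 0.429 at 10 weeks and 5.02 at 15 weeks. Cyp2b9, of the same family, had 1.2 at 0 weeks, was at least 13.1-fold lower at 5 weeks and at least 14.4-fold lower at 10 weeks, and had 0.328 at 15 weeks. Cyp3a11, the main PXR target, had 711, 63.7, 169 and 272. The estrogen sulfotransferase gene Sult1e1 had 1.76, 1.34, 0.252 and 0.311, and Por, the partner reductase of the cytochromes, had 134, 101, 88.7 and 31.7. Aldh1a1, an aldehyde dehydrogenase, had 357, 402, 672 and 476, above 0 weeks at each later time and within 2-fold. Probes of the Cyp2b and Cyp3a families can share signal between members. The receptor genes themselves, Nr1i3 for CAR with 35.9, 29.1, 37.4 and 18.6 and Nr1i2 for PXR with 21.0, 21.5, 20.7 and 17.3, stayed within 2-fold of 0 weeks.

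Some markers of bile duct cells were lower on the same arrays. Of 9 measured, 4, 5 and 2 were at least 2-fold lower at 5, 10 and 15 weeks than at 0 weeks. Higher were 1, 0 and 2. Among all measured genes, 1.57%, 1.53% and 5.03% were lower at these times, and 2.3%, 2.92% and 5.76% higher. The summed signal of the bile duct list was 21.1, 17.3, 6.83 and 22.0. It includes Spp1, also in the recruited macrophage list, which had 1.59, 2.26, 2.04 and 9.69. Spp1 was 1 of the 2 higher at 15 weeks, so the 15-week sum is not particular to duct cells. Krt19, the keratin of duct cells, had 8.07, 1.59, 0.592 and 2.04, and Prom1 had 3.89, 1.40, 0.444 and 1.94. Epcam, a surface marker of the same cells, had 0.293, 0.212, 0.151 and 0.491, Cftr was not above background on any array, and the 5-week spot of Krt7 lay among 11 bright neighbours. In the stellate cell and fibroblast list, summed at 192.7, 194.8, 136.3 and 299.1, 3, 5 and 1 of 11 measured genes were lower at 5, 10 and 15 weeks than at 0 weeks, and 0, 0 and 5 were higher. The smooth muscle gene Acta2, the 1 lower at 15 weeks, had 17.3, 7.77, 0.897 and 5.33, and the collagen gene Col1a1, among the 5 higher, had 3.47, 2.92, 1.3 and 16. Krt19, Prom1 and Acta2 thus shared with Akr1b7 a 0-week array above the other 3, and the labels do not say which piece of liver was taken for an array. The part of these cells in the Akr1b7 signal, and in the 10-week minimum and 15-week maximum of Srxn1 and Akr1b8, was not tested.

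The genes most like Akr1b7 over the 4 arrays were Hamp2 (root mean square difference 0.149), Ptgds (0.305), Cyp39a1 (0.595), Kcnh3 (0.596) and Vsig2 (0.605), among the same 1913 candidates.

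Akr1b8, a lipid-aldehyde reductase close to human AKR1B10, was read by 10 spots of 1 probe at mm9 chr6:34318338-34318397. Their mean was 3.62, 3.53, 2.90 and 4.53 at 0, 5, 10 and 15 weeks, and the SD over the 10 spots was 0.0584, 0.0559, 0.0964 and 0.0296 on the log2 scale. The 5- and 0-week arrays overlapped, with a difference of -0.04 ± 0.06 (SD over 10 spots), and the 15-week array lay above them by 0.32 ± 0.06 against 0 weeks. That difference is larger than the spread between spots on an array, which says nothing of the spread between mice, and it is under 2-fold. The spread between spots also leaves out the scaling. The difference was 0.57 against the median gene and, unadjusted, ran between 0.32 and 0.84 over the alternatives. The highest of the 10-week spots, at 3.40, had 7 bright neighbours, and the lowest was 2.67.

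Of the other aldo-keto reductases, 13 were measured. At 15 weeks 1 was at least 2-fold higher and 1 lower than at 0 weeks, beside 5.76% and 5.03% of all measured genes. The higher was Akr1b10 with 0.967, 1.35, 1.35 and 1.97, and the lower was Akr1c19 with 22.0, 14.2, 18.6 and 11. Akr1b3, aldose reductase, had 2.80, 3.80, 3.94 and 5.18. At 10 weeks 2 others were higher than at 0 weeks, beside 2.92% of all measured genes. They were Akr1c6 with 362, 654, 828 and 513 and Akr1c20 with 34.8, 58.7, 83.4 and 48.8 over the 4 arrays.

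The calls among members were read against all genes. At 5 weeks against 0 weeks 0 of 9 measured members were higher and 1 lower, where 2.3% of all measured genes were higher and 1.57% lower, and 8 of the 9 lay below the median gene. At 10 weeks against 0 weeks 1 was higher and 1 lower, beside 2.92% and 1.53% of all genes. At 15 weeks against 0 weeks 1 was higher and 1 lower, beside 5.76% and 5.03%, and 7 of 9 lay above the median gene. The members' median minus that of all genes was -0.25, -0.07 and 0.45 on the log2 scale at these times. With 9 measured members, each count rests on the 1 gene already described.

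**Figure D3:**
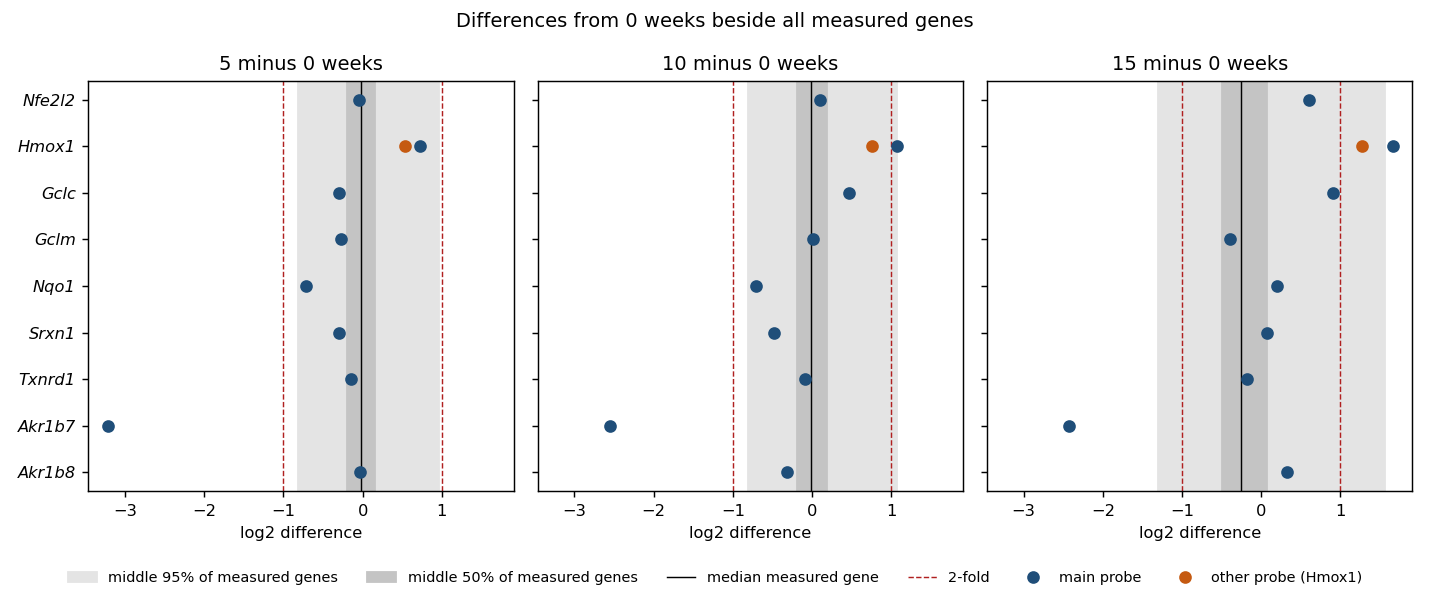
Log2 difference from 0 weeks of the 9 measured members at 5, 10 and 15 weeks; points are probes, the black line is the median measured gene, grey bands hold the middle 50% and 95% of measured genes and dashed lines mark 2-fold. Akr1b7 lies outside the wide band at all 3 times. Hmox1's main probe lies on its edge at 10 weeks and outside it at 15 weeks, while the other members stay inside it.

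The later arrays were also compared with each other. At 10 weeks against 5 weeks 0 members were higher and 0 lower, beside 0.953% and 1.13% of all genes. Between 15 and 10 weeks again 0 were higher and 0 lower, beside 3.95% and 4.06%, although 8 of 9 lay above the median gene. Between 15 and 5 weeks 1 of 9, Gclc, was higher and 0 lower, beside 4.08% and 4.3%. In that comparison all 9 lay above the median gene and the members' median stood 0.87 above it. As scaled, Nqo1 was 0.92, Hmox1 0.94, Akr1b7 0.79 and Nfe2l2 0.65 higher. The Akr1b7 value compares dim signals, 0.120 at 5 weeks and 0.207 at 15 weeks, and ran between 0.37 and 1.23 over the alternatives.

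Most other NRF2 target genes stayed within 2-fold of 0 weeks. Of 36 measured, 0 were at least 2-fold higher and 4 lower at 5 weeks than at 0 weeks, beside 2.3% and 1.57% of all genes. The 4 were the glutathione S-transferases Gsta2 and Gstm3 and the carbonyl reductases Cbr1 and Cbr3. At 15 weeks against 0 weeks 1 was higher and 3 lower, beside 5.76% and 5.03%. Relative to 5 weeks, 5 were higher and 2 lower at 15 weeks, beside 4.08% and 4.3%, with a median 0.51 above all genes. This comparison shares the 5-week array with the first. The 5 were Gstm3 with 9.51, 4.48, 7.54 and 18.6 at 0, 5, 10 and 15 weeks, Gsta2 with 11.6, 3.24, 5.35 and 10.2, Cbr3, a carbonyl reductase, with 2.51, 1.21, 1.04 and 3.59, Gsta4 with 3.13, 1.57, 2.48 and 3.84, and Gstm4 with 22.6, 12.4, 17.9 and 25.7. The 2 lower were Gpx2, the epithelial glutathione peroxidase, with 0.555, 0.342, 0.129 and 0.0993, and Gstp1 with 444, 412, 372 and 197. Cbr1, another carbonyl reductase, was lower at each later time, with 105, 48.9, 46.2 and 43.3. G6pdx, which supplies NADPH, had 1.5, 2.34, 2.55 and 3.43 and was 2.29-fold higher at 15 weeks than at 0 weeks. Members of the glutathione S-transferase families can share signal between probes.

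Most other antioxidant enzymes, a list that shares a few genes with the others, stayed within 2-fold. Of 30 measured at 15 weeks against 0 weeks, 2 were higher, Gpx8 and the extracellular dismutase Sod3, and 2 were lower, Glrx, a glutaredoxin, and Aifm2, a ubiquinone reductase. These counts stand beside 5.76% and 5.03% of all measured genes. Catalase, Cat, had 39.8, 42.9, 43.5 and 42.0 over the 4 arrays. The median of the list lay 0.09 above that of all genes.

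The remaining cell markers at 15 weeks against 0 weeks were higher for 2 of 5 measured neutrophil genes, 2 of 8 T and NK cell genes, 0 of 2 B cell genes, 0 of 10 sinusoidal endothelial genes, 2 of 2 adipocyte genes and 0 of 5 red cell genes. Lower were 1 T and NK cell gene and 1 red cell gene. The shares of all measured genes were 5.76% higher and 5.03% lower. The adipocyte list holds 6 genes, and Adipoq, Plin1, Retn and Lep were not above background at 0 or 15 weeks.

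**Figure D4:**
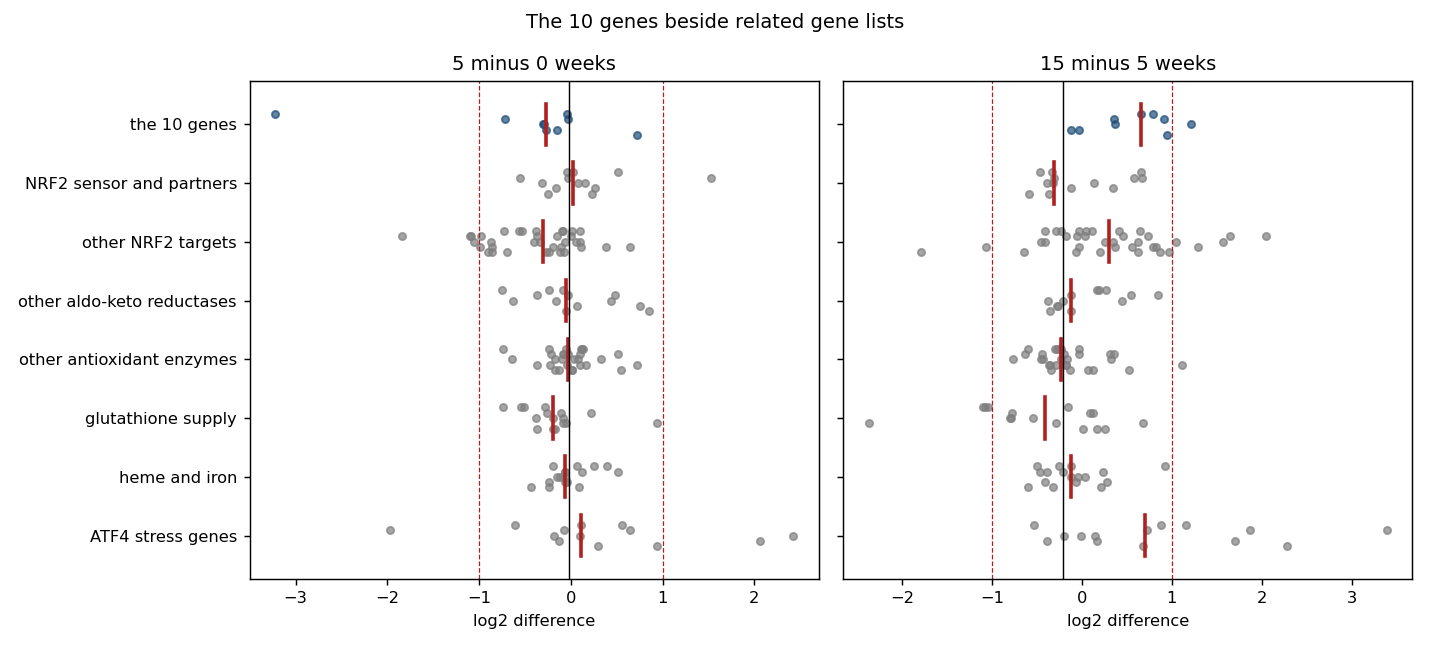
Log2 difference of each measured gene at 5 weeks against 0 weeks (left) and at 15 weeks against 5 weeks (right) for the 10 genes and 7 related lists; red bars are list medians, the black line is the median measured gene and dashed lines mark 2-fold. The 10 genes and the other NRF2 targets have medians below the median gene on the left and above it on the right; both panels use the 5-week array.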

How the data were processed

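Total RNA from frozen liver was amplified, labelled with Cy3 and hybridised to 1-colour Agilent arrays, per the labels' protocols. Per the file headers, the deposited scanner files come from Agilent Feature Extraction 10.7.3.1 and hold, per spot, a background-subtracted processed intensity on a linear scale, raw mean and background intensities, the scanner's error and marks for background, saturation and outliers. The 4 scans carry 1 scan time. No spot was saturated and 0 member spots were marked as outliers. The authors' deposited value table equals the processed intensity divided by each array's median over non-control spots; it is linear and not centred on genes. Probe positions are those of the files, in build mm9.

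Main values were log2 of the processed intensity minus the 75th percentile of all non-control spots of that array, with spots of a probe averaged and the probe with the highest mean taken for a gene. Probes were named by accession or symbol through the RefSeq table of GRCm38.p6: accessions named 27509 of 55681 probes, current symbols 3549 and earlier symbols 404, and the scanner file's own name was kept for 24219. Exon and UTR boundaries were not used here. For a probe above background on a single array of a pair, the bound was set by the lowest signal of probes above background. A spot was called locally bright where at least 5 of 48 neighbours were at least 2-fold above their own median over the arrays. Hmox1 and Gclc have no entry in the promoter table used.

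The 10 genes were all named; genes of the 19 companion lists could be named where at least 2-fold different in 1 of 6 comparisons, at most 8 a list, or where a result on a member turns on them, and the text names a part of them; and for the 3 members with the largest range the 5 genes of most like profile. Some genes within 2-fold, such as Hmox2, Cat, Akr1b3, Nr1i2, Blvra, Aldh1a1, Atf4, Trib3, Sesn2, Cebpb and Ddit3, were chosen after their values were seen. So were Epcam, and Lep and Cftr, which were not above background on any array. The members and lists were chosen with earlier results of these data known. With 1 array a time, no test was made, and the number of arrays limits the precision. Alternatives were other scalings, quantile normalization, normexp in limma 3.58.1 (R 4.3.3), the deposited table, the mean of a gene's probes, no background filter, a 1.5-fold threshold, and locally bright spots left out. The script was tested on simulated data; other steps used Python 3.11.15, numpy 2.4.6 and pandas 2.3.3.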

Additional observations from a re-analysis of the deposited data

How the results depend on the processing

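No paired analysis was possible because each time has 1 array. The direction of all members called at least 2-fold different held under every alternative run. Not every alternative is a separate check. The deposited table repeats the array median, and some settings cannot move the difference of a gene with 1 probe. Spike-in scaling was chosen after seeing the data. Counts of higher members at 10 weeks against 0 weeks were 0 with the array median, the deposited table or the mean of a gene's probes. They were 2 at 15 weeks against 0 weeks with the 75th percentile of detected probes, quantile normalization or normexp, and 3 with spike-in scaling. Between 15 and 10 weeks they were 1 with the array median, the 75th percentile of detected probes or the deposited table, and 6 with spike-in scaling. Between 15 and 5 weeks they were 3 with those same 3 settings, 2 with quantile normalization or normexp, and 5 with spike-in scaling. With a 1.5-fold threshold, members higher were 1, 3, 2, 3 and 5 at 5 against 0, 15 against 0, 10 against 5, 15 against 10 and 15 against 5 weeks, and 2 were lower at 5 and at 10 weeks against 0 weeks.

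The members' median log2 difference at 10 weeks against 0 weeks was -0.19 with the array median or the deposited table. For 15 against 0 weeks spike-in scaling gave 0.72, normexp 0.41, and quantile normalization or the 75th percentile of detected probes 0.40. At 10 weeks against 5 weeks it was 0.014 with spike-in scaling and 0.28 without locally bright spots. For 15 against 10 weeks spike-in scaling gave 1.07, quantile normalization 0.77, normexp 0.71, the 75th percentile of detected probes 0.70, and the deposited table or the array median 0.68. For 15 against 5 weeks spike-in scaling gave 1.09, quantile normalization 0.84, the 75th percentile of detected probes 0.83, the deposited table or the array median 0.79, and no background filter 0.51. A scaling moves every gene of an array by 1 amount, so the members' median relative to all genes was the same with the 4 plain scalings. Dim probes such as those of Akr1b7 after 0 weeks and Slc7a11 are limited by signal over background.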
